A study of Mus musculus with 5 samples.

Results

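The endogenous retroviruses of class 1 (family name ERV1 in the repeat annotation) were examined in mouse embryonic stem cells that carried short hairpins against Trim28, against Wtx or against GFP. All rows of the deposited repeat table whose family was given as ERV1 were taken, which made 110 of 1221 repeat rows, and 3 further rows marked with a question mark after the family name were left out. The rows are repeat elements summed over all their genomic copies, 29 of them internal retroviral sequences and 81 long terminal repeats (LTRs). Of the 110 members, 70 had enough counts to be tested. The other 40 had at most 31.6 counts over all libraries together, and 1 of them, MER66A, had none.

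The cells were of the ES-D3 line, grown with leukemia inhibitory factor over irradiated feeder cells, infected with a lentiviral hairpin and selected with puromycin. Feeder cells were reduced by a short replating before total RNA was taken, and RNA was read by Helicos single-molecule sequencing, which uses no amplification. There were 2 libraries with Trim28 hairpins (shTrim28 1 and 2), 2 labelled with Wtx hairpins (shWtx 1 and 2) and 1 library with a hairpin against GFP (shGFP), a sequence that the cells do not have. The 2 libraries of a group differ in their hairpin, and nothing in the labels says whether they came from separate cultures, so the p-values measure only the spread between these libraries. With 1 control library, the spread in every test came from the shTrim28 pair and the shWtx pair.

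ERV1 elements are remains of germline infections by gammaretroviruses and their relatives. A provirus is bounded by 2 LTRs, which hold its promoter, and the internal part encodes Gag, Pol and Env in intact copies. In mouse embryonic stem cells, Trim28 (also called KAP1) is a corepressor that is brought to proviruses by KRAB zinc finger proteins, among them Zfp809, which recognises the tRNA-proline primer binding site of murine leukemia virus. Trim28 in turn recruits the histone H3 lysine 9 methyltransferase Setdb1 and heterochromatin protein 1. Wtx (gene symbol Fam123b in the deposited gene table, now Amer1) is an X-linked tumour suppressor that the title of the study names as a partner of Trim28.

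The hairpin target sequences are shown because they separate the libraries of each group. Each was found in the transcript of its gene, and positions are on GRCm38 with GENCODE annotation, whereas the submitters' processing notes name mm9 for the counts. Capitals mark the 20 bases that the targets of both Wtx hairpins share.
shTrim28 1: ccaccagtcttcaaggtcttt
shTrim28 2: ccgcatgttcaaacagttcaa
shWtx 1: gCCAGACATGCAAGAAGCAAA
shWtx 2: CCAGACATGCAAGAAGCAAAt

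The target of shTrim28 1 lies at chr7:13029440-13029460 on the plus strand, in coding sequence of exon 12 of 17 of Trim28. The target of shTrim28 2 lies at chr7:13030559-13030579, in coding sequence of exon 16. The targets of shWtx 1 and shWtx 2 lie at chrX:95426292-95426312 and chrX:95426291-95426311 on the minus strand, both in coding sequence of exon 2 of 2 of Amer1. The Wtx hairpins therefore differ by a shift of 1 base, and those 2 libraries do not represent independent target sites.

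Trim28 had 63.5 and 48.4 counts per 1000000 gene counts (CPM) in shTrim28 1 and 2, 400 and 396 CPM in shWtx 1 and 2, and 783 CPM in shGFP. It fell in the shTrim28 libraries (log2 fold change -3.88, SE 0.29, adjusted p = 2.78e-09 by edgeR's quasi-likelihood test) and also in the libraries labelled shWtx (-0.97, SE 0.26, adjusted p = 0.0108). The shWtx call was lost with DESeq2's Wald test and with no filter on low counts. Fam123b had 19.3 and 30.5 CPM in shTrim28, 25.7 and 16.7 CPM in shWtx, and 15.2 CPM in shGFP. Its log2 fold change in shWtx against shGFP was 0.65 (SE 0.63, adjusted p = 0.508), so a lower level of the targeted gene was not seen in the libraries labelled shWtx. These values rest on 8.50 counts in shGFP and on 18.6 and 6.07 counts in shWtx 1 and 2. Fam123b passed the filter on low counts through libraries other than shGFP. With so few counts, the knockdown of Wtx could not be checked in either direction.

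The ERV1 level depended on what it was read against. Summed over all 110 members and divided by the scaled gene total, it was 9464 and 7042 CPM in shTrim28 1 and 2, 18321 and 14637 CPM in shWtx 1 and 2, and 3998 CPM in shGFP. That is 2.37 and 1.76 times the shGFP level in the shTrim28 libraries and 4.58 and 3.66 times in the shWtx libraries. All 4 shTrim28 and shWtx libraries lay above the control on this scale, and both shWtx libraries lay above both shTrim28 libraries.

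Read against DNA transposon repeats of the same library, the same sums were nearly level. There were 651 and 580 ERV1 counts per 1000 DNA repeat counts in shTrim28 1 and 2, 693 and 684 in shWtx 1 and 2, and 654 in shGFP, which lay within the range of the other libraries. DNA repeats had themselves 2.37 and 1.98 times the shGFP CPM in shTrim28, and 4.32 and 3.50 times in shWtx. Counts of chemoreceptor genes, which stem cells are not known to transcribe, stood at 2361 and 1622 CPM in shTrim28, 4713 and 3998 CPM in shWtx, and 356 CPM in shGFP. Both quantities moved with the ERV1 CPM, and their part in the result was not tested.

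The DNA repeat scale leans on 1 element. FordPrefect, a DNA transposon, held 12.3% and 29.0% of the DNA repeat counts in shTrim28 1 and 2, 5.04% and 7.01% in shWtx 1 and 2, and 33.5% in shGFP. With FordPrefect taken out of the total, ERV1 had 742 and 817 counts per 1000 DNA repeat counts in shTrim28, 730 and 735 in shWtx, and 983 in shGFP. On that scale all 4 shTrim28 and shWtx libraries lay below the control, at 0.755 and 0.831 times its level in shTrim28 and 0.742 and 0.748 times in shWtx. As a share of all repeat counts outside ribosomal RNA, ERV1 made up 1.25% and 1.24% in shTrim28, 1.52% and 1.38% in shWtx, and 0.908% in shGFP.

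**Figure D1:**
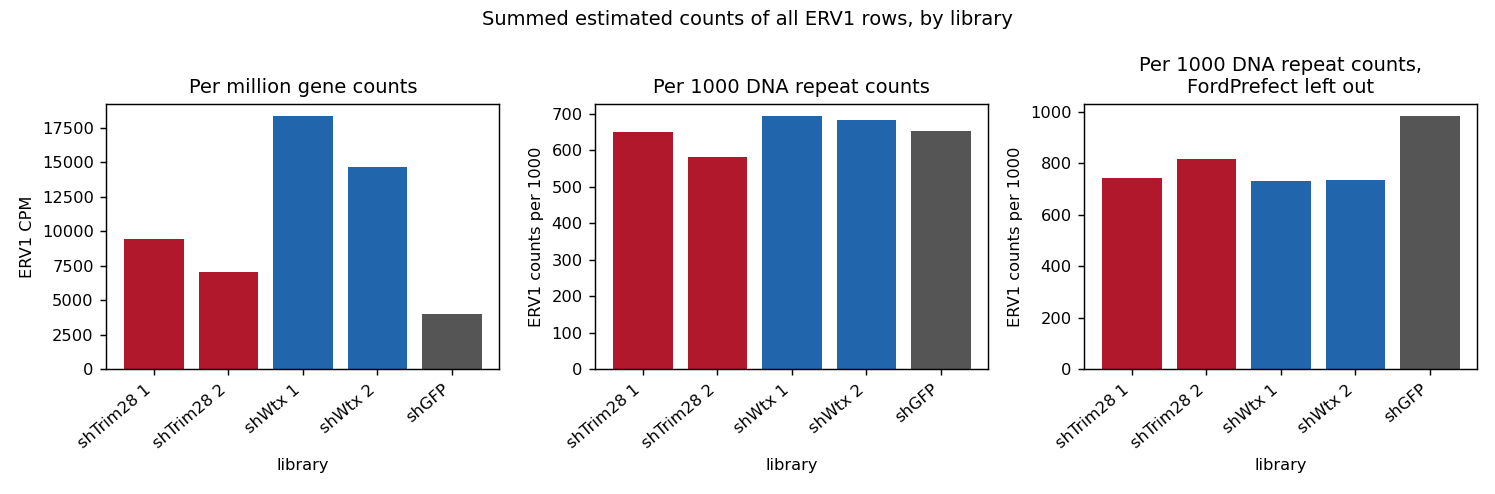
Summed counts of the 110 ERV1 members in each library (bars, 1 library each), as CPM of gene counts (left), per 1000 DNA repeat counts (middle) and per 1000 DNA repeat counts with FordPrefect left out (right). The shGFP bar is the lowest on the left at 3998 CPM, lies within the other bars in the middle at 654, and is the highest on the right at 983.

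Depth differed widely between libraries. The gene table summed to between 280614 and 1901560 counts and the repeat table to between 337226 and 2078320. The 110 members together had 2608 and 12549 counts in shTrim28 1 and 2, 13253 and 5316 in shWtx 1 and 2, and 2233 in shGFP. The 10 members with the most counts held 47.9% of all ERV1 counts, and 33 of the 70 tested members had under 10 counts in shGFP, so many single values are imprecise there. Those 33 passed the filter on low counts through other libraries, where they are high, so the counts and medians over tested members describe these libraries and are no support for a direction. Element lengths are not in the files, so levels of different elements are not compared.

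In shTrim28 against shGFP on the gene scale, 19 of the 70 tested members rose and none fell (edgeR's quasi-likelihood test, Benjamini-Hochberg adjusted over all 900 repeat elements tested, threshold 0.05). The corresponding shares of all tested repeats were 20.9% higher and 0.111% lower. At an unadjusted p under 0.05, 34 members were higher and none lower, beside 393 and 4 of the 900 repeats tested. DESeq2's Wald test called 15 members higher and 0 lower. Here and below, the share of all repeats is not given for DESeq2 or for fits with libraries left out. Those counts describe the members only. The log2 fold change was above 0 for 66 of 70 members, with a median of 1.35, against 1.15 over all tested repeats. The medians were 1.34 for ERVK elements, 1.31 for ERVL and MaLR elements and 1.32 for DNA repeats. The 19 calls rest on the spread of the shWtx pair as well, since none passed without shWtx 1, without shWtx 2 or with the shWtx libraries left out. In those 3 fits 25, 23 and 25 members had an unadjusted p under 0.05. Without shTrim28 2, 33 members rose.

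In the libraries labelled shWtx against shGFP, 63 of 70 members rose on the gene scale and none fell, where 82.2% of all tested repeats rose and 0.333% fell. DESeq2 called 50 higher and 0 lower. At an unadjusted p under 0.05 there were 63 members higher and none lower, beside 749 and 4 of the 900 repeats tested. The median log2 fold change was 2.40, against 2.21 over all repeats. Without shWtx 1 the number that rose was 39. The 7 that did not pass were RLTR4_MM-int, RLTR1B, RLTR4_Mm, MER34B-int, MER34A1, RLTR47_MM and RLTR6_Mm.

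In shTrim28 against shWtx, 56 of 70 members were lower in shTrim28 than in shWtx on the gene scale and none higher, where 66.0% of all repeats were lower and 1.33% higher. Some members, such as MER65D and MER57E1, passed the filter on low counts only through a shWtx library. For these a lower level in shTrim28 was built into the selection, so the number lower is no support for a direction. DESeq2 called 20 lower and 0 higher. At an unadjusted p under 0.05 there were 57 members lower and none higher, beside 652 and 15 of the 900 repeats tested. The median log2 difference was -1.16, against -1.05 over all repeats. This count was 0 without shTrim28 2, 0 without shWtx 1 and 1 without shWtx 2. In the first 2 of those fits 27 and 6 members had an unadjusted p under 0.05. Both comparisons with shGFP share that 1 library.

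On the DNA repeat scale, no member passed in shTrim28 against shGFP, where 0.444% of all repeats rose and 1.22% fell. At an unadjusted p under 0.05, 7 members were higher and 5 lower, beside 66 and 99 of the 900 repeats tested. DESeq2 called 0 members higher and 1 lower. The median log2 fold change was 0.27 over the members and 0.03 over all repeats, while it was 0.21 for ERVK elements, 0.19 for ERVL and MaLR elements and 0.25 for DNA repeats. Without shTrim28 1 the test called 2 higher and 5 lower, and without shTrim28 2 it called 2 higher and 4 lower. With FordPrefect out of the total, 4 members fell (MER34B-int, RLTR47_MM, RLTR1B and RLTR6_Mm) and none rose, beside 5.33% and 0.889% of all repeats. The median of the members was then 0.09, against -0.17 over all repeats.

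In shWtx against shGFP on the DNA repeat scale, 3 members rose and 3 fell, where 4.67% of all repeats rose and 7.00% fell. RLTR1C, RLTR6-int and RodERV21-int rose, and MER34B-int, RLTR6_Mm and RLTR47_MM fell. RLTR1C had 5.18 counts in shGFP and passed the filter on low counts through other libraries, so its rise here and without FordPrefect is a description only. None of the members passed without shWtx 1 or without shWtx 2. Without shTrim28 1, and likewise without shTrim28 2, 10 rose and 6 fell. DESeq2 called 2 higher and 2 lower. With FordPrefect out of the total 2 rose and 9 fell, beside 2.78% and 18.3% of all repeats. The 2 were RLTR1C and RLTR6-int, and RLTR1B, RLTR4_MM-int, RLTR4_Mm, MER34A1, LTRIS2 and MMVL30-int joined the 3 that fell on the full scale. The median of the members was 0.45 on the full DNA scale and -0.05 without FordPrefect, and that over all repeats was 0.23 and -0.27, a shift of all rows alike.

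Between shTrim28 and shWtx no member passed on the DNA repeat scale by edgeR or DESeq2, where 0.889% of all repeats were higher and 0% lower. At an unadjusted p under 0.05 there were 4 members higher and 5 lower, beside 61 and 53 of the 900 repeats tested. With FordPrefect out of the total, RLTR6_Mm, MMVL30-int and MER34B-int were higher in shTrim28, beside 4.56% of all repeats. Without shTrim28 1, 3 members were higher and 1 lower on the full DNA scale.

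**Figure D2:**
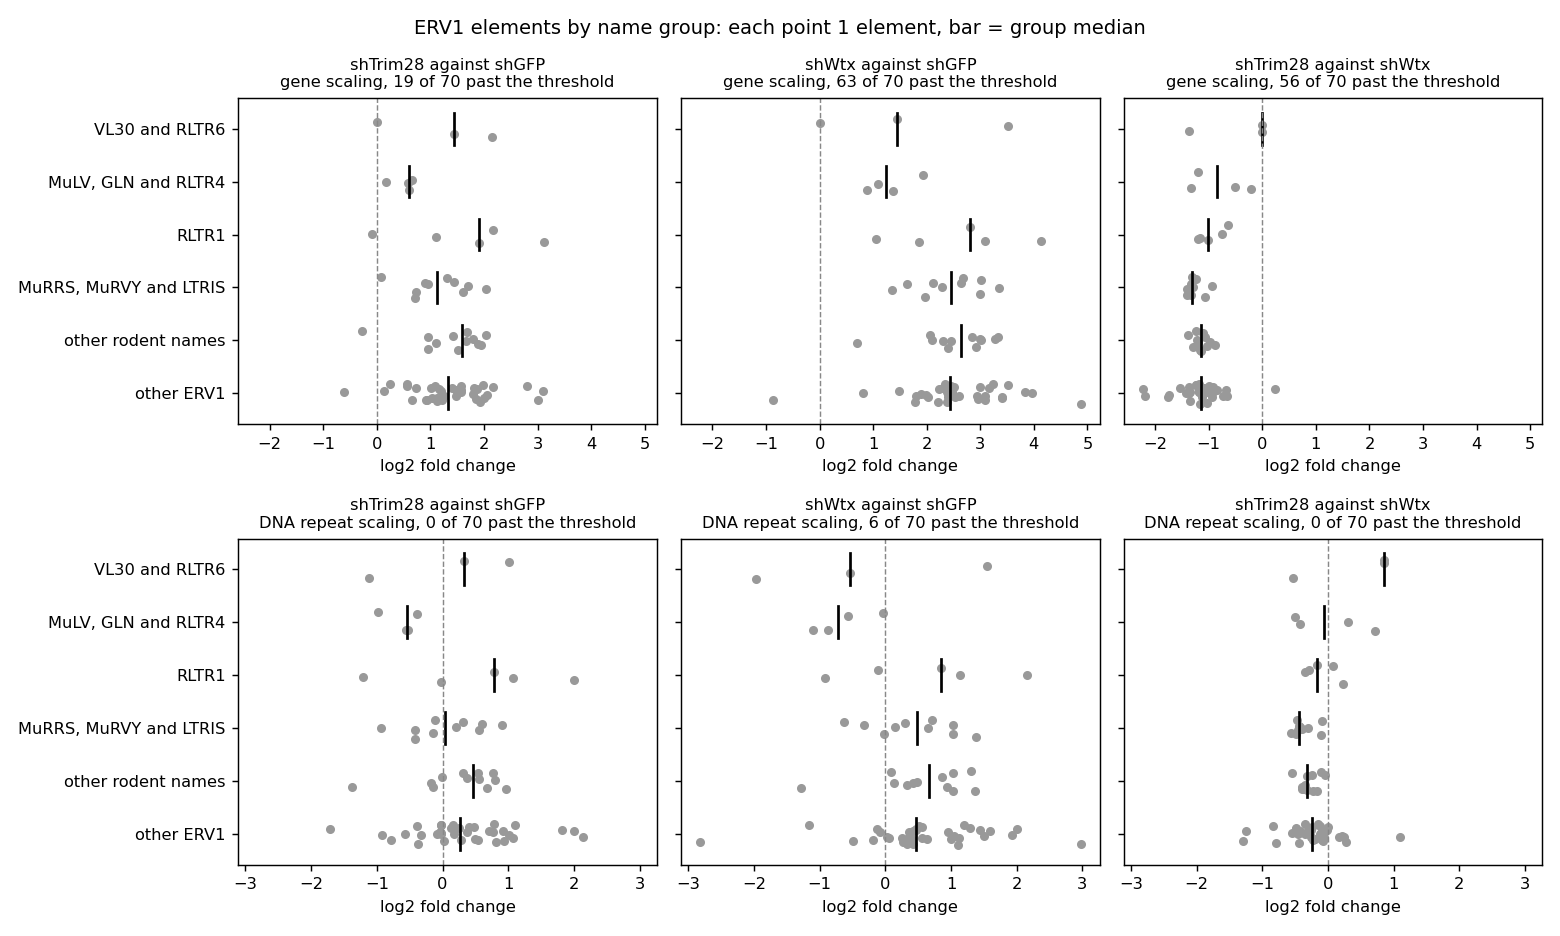
Log2 fold changes of the 70 tested ERV1 members in each comparison, on the gene scale and on the DNA repeat scale, with 1 point for each member. On the gene scale the median is 1.35 for shTrim28 against shGFP and 2.40 for shWtx against shGFP, and on the DNA repeat scale it is 0.27 and 0.45.

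The VL30 elements, which make RNA that murine leukemia virus particles can package, did not move as a unit. They are the internal rows MMVL30-int and RLTR6-int and the LTR row RLTR6_Mm. RLTR6_Mm had 378 and 362 CPM in shTrim28, 445 and 297 CPM in shWtx, and 371 CPM in shGFP. The groups overlapped on the gene scale, where the log2 fold changes came to -0.01 for shTrim28 (SE 0.55, adjusted p = 0.993) and to 0.01 for shWtx (SE 0.55, adjusted p = 0.989). Relative to 1000 DNA repeat counts the same element had 26.0 and 29.8 in shTrim28, 16.8 and 13.9 in shWtx, and 60.6 in shGFP, with both groups below the control. There it fell in shWtx (log2 fold change -1.97, SE 0.25, adjusted p = 0.0101), and the value in shTrim28 was -1.11 (SE 0.25, adjusted p = 0.101). Without shWtx 1 the shWtx value was -2.12 (adjusted p = 0.166), and without shWtx 2 it was -1.85 (adjusted p = 0.120).

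RLTR6-int had 521 and 320 CPM in shTrim28, 1189 and 942 CPM in shWtx, and 92.3 CPM in shGFP. The 3 groups did not overlap, and it rose on the gene scale in shTrim28 (log2 fold change 2.15, SE 0.63, adjusted p = 0.0145) and in shWtx (3.51, SE 0.67, adjusted p = 4.5e-06). The shTrim28 value was 2.16 with an adjusted p of 0.182 without shWtx 1 and 2.16 with an adjusted p of 0.180 without shWtx 2. It had 35.8 and 26.3 counts per 1000 DNA repeat counts in shTrim28, 45.0 and 44.0 in shWtx, and 15.1 in shGFP. On that scale it rose in shWtx (1.55, SE 0.31, adjusted p = 0.0304), and the shTrim28 value was 1.01 (SE 0.30, adjusted p = 0.176). With FordPrefect out of the total the shWtx value was 1.05 (adjusted p = 0.0166). The full-scale shWtx value was 1.53 without shWtx 1 and 1.56 without shWtx 2, and the call was lost in both fits.

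MMVL30-int had 517 and 518 CPM in shTrim28, 598 and 444 CPM in shWtx, and 192 CPM in shGFP. Both groups lay above the control and the shTrim28 values lay inside the shWtx range. It did not pass in shTrim28 (log2 fold change 1.43, SE 0.59, adjusted p = 0.0596) and rose in shWtx (1.45, SE 0.59, adjusted p = 0.0197), a call lost without shWtx 1 (1.21, adjusted p = 0.268) and without shWtx 2 (1.64, adjusted p = 0.120). The shTrim28 value passed without shTrim28 1 (1.44, adjusted p = 0.0235) and without shTrim28 2 (1.43, adjusted p = 0.0142). Per 1000 DNA repeat counts it had 35.6 and 42.7 in shTrim28, 22.6 and 20.7 in shWtx, and 31.4 in shGFP, so that the shTrim28 libraries were the highest and the shWtx libraries the lowest. The log2 difference between shTrim28 and shWtx was 0.85 on that scale (SE 0.20, adjusted p = 0.136), and 1.14 with an adjusted p of 0.0473 once FordPrefect was out of the total.

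The murine leukemia virus rows and the related GLN row, named for a glutamine tRNA primer, had a group median of 0.60 in shTrim28 and 1.24 in shWtx on the gene scale (log2 fold change over 4 rows). MuLV-int, the internal part of murine leukemia virus, had 91.4 and 53.8 CPM in shTrim28, 188 and 154 CPM in shWtx, and 44.1 CPM in shGFP. It did not pass in shTrim28 (log2 fold change 0.61, SE 0.58, adjusted p = 0.397) and rose in shWtx (1.94, SE 0.58, adjusted p = 0.00163), though not without shWtx 1 (1.78, adjusted p = 0.0582). Set against 1000 DNA repeat counts it had 6.29 and 4.43 in shTrim28, 7.11 and 7.18 in shWtx, and 7.21 in shGFP, with the control the highest by a narrow margin over shWtx. Neither group passed on that scale, with -0.53 (adjusted p = 0.442) in shTrim28 and -0.03 (adjusted p = 0.955) in shWtx.

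MMERGLN-int had 569 and 252 CPM in shTrim28, 854 and 1003 CPM in shWtx, and 357 CPM in shGFP. The shTrim28 libraries lay on either side of the control, and no change passed there (0.18 on the log2 scale, SE 0.55, adjusted p = 0.802), whereas the shWtx libraries lay above it and the element rose there (1.38, SE 0.58, adjusted p = 0.0228). Without shTrim28 1 the shTrim28 value was -0.50 (adjusted p = 0.396). The shWtx call was lost without shWtx 1 (1.49, adjusted p = 0.177) and without shWtx 2 (1.26, adjusted p = 0.226). The control was the highest library on the DNA repeat scale, with 39.2 and 20.7 per 1000 in shTrim28, 32.3 and 46.9 in shWtx, and 58.3 in shGFP, and neither group passed.

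The remaining rows of that group, RLTR4_Mm (an LTR of murine leukemia virus) and RLTR4_MM-int, fall outside the rule by which elements were named and were added after their values were seen. RLTR4_Mm had 51.7 and 55.6 CPM in shTrim28, 62.4 and 64.3 CPM in shWtx, and 33.7 CPM in shGFP. RLTR4_MM-int had 298 and 175 CPM in shTrim28, 332 and 326 CPM in shWtx, and 154 CPM in shGFP. The control had the lowest CPM for both, and neither passed in any comparison on the gene scale or the full DNA repeat scale. With FordPrefect out of the total both fell in shWtx, at -1.61 (adjusted p = 0.0450) for RLTR4_Mm and -1.37 (adjusted p = 0.0108) for RLTR4_MM-int. The sources used here do not say how reads that match both MuLV-int and the RLTR4 rows were shared.

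RLTR1C, the LTR row given as the marker of the family, had among the largest fold changes of the members. It had 103 and 64.0 CPM in shTrim28, 191 and 124 CPM in shWtx, and 9.27 CPM in shGFP, where the value rests on 5 counts. RLTR1C passed the filter on low counts through the libraries where it is high, so a level above the control was built into its selection. Its tests against shGFP on both scales are a description only. The control was far below every other library, and shTrim28 and shWtx did not overlap. It rose in shTrim28 (log2 fold change 3.12, SE 0.73, adjusted p = 0.00222) and in shWtx (4.13, SE 0.72, adjusted p = 1.17e-06) on the gene scale, and was lower in shTrim28 than in shWtx (-1.01, SE 0.42, adjusted p = 0.0345). That difference did not pass without shTrim28 2 (-0.66, adjusted p = 0.268), without shWtx 1 (-0.63, adjusted p = 0.457) or without shWtx 2 (-1.25, adjusted p = 0.168). The shTrim28 value was 3.14 without shWtx 1 (adjusted p = 0.113) and 3.14 without shWtx 2 (adjusted p = 0.170).

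Per 1000 DNA repeat counts, RLTR1C had 7.06 and 5.28 in shTrim28, 7.24 and 5.81 in shWtx, and 1.52 in shGFP. The shTrim28 and shWtx libraries overlapped on that scale, all above the control. It rose in shWtx (log2 fold change 2.16, SE 0.47, adjusted p = 0.0406), and the value in shTrim28 was 2.00 (SE 0.48, adjusted p = 0.121). The shWtx call was lost without shWtx 1 (1.97, adjusted p = 0.235), without shWtx 2 (2.29, adjusted p = 0.115) and with DESeq2 (2.16, adjusted p = 0.0794). The group of RLTR1, RLTR1B, RLTR1B-int, RLTR1C and RLTR1D had 5 tested rows, of which 3 rose in shTrim28 on the gene scale, 4 rose in shWtx and 3 were lower in shTrim28 than in shWtx, beside 20.9%, 82.2% and 66.0% of all repeats. RLTR1, RLTR1C and RLTR1D are among the members with under 10 counts in shGFP (6.09, 5.18 and 9.51). The group's counts against shGFP are therefore no support for a direction.

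RLTR1B, another LTR of that name group, had 206 and 189 CPM in shTrim28, 486 and 390 CPM in shWtx, and 211 CPM in shGFP. The shTrim28 libraries lay just below the control and the shWtx libraries above it. On the gene scale neither group passed, with log2 values of -0.10 for shTrim28 (SE 0.56, adjusted p = 0.890) and 1.06 for shWtx (SE 0.58, adjusted p = 0.0811). On the DNA repeat scale it had 14.2 and 15.6 per 1000 in shTrim28, 18.4 and 18.2 in shWtx, and 34.6 in shGFP, all 4 shTrim28 and shWtx libraries below the control. The log2 fold changes there came to -1.20 for shTrim28 (SE 0.23, adjusted p = 0.0764) and to -0.91 for shWtx (SE 0.23, adjusted p = 0.0618), and both passed with FordPrefect out of the total, at -1.42 (adjusted p = 0.0282) and -1.41 (adjusted p = 0.0105). RLTR1B and RLTR1C lay on opposite sides of the control per DNA repeat count. The place of RLTR1C above the control was built into its selection, so this contrast is a description only.

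**Figure D3:**
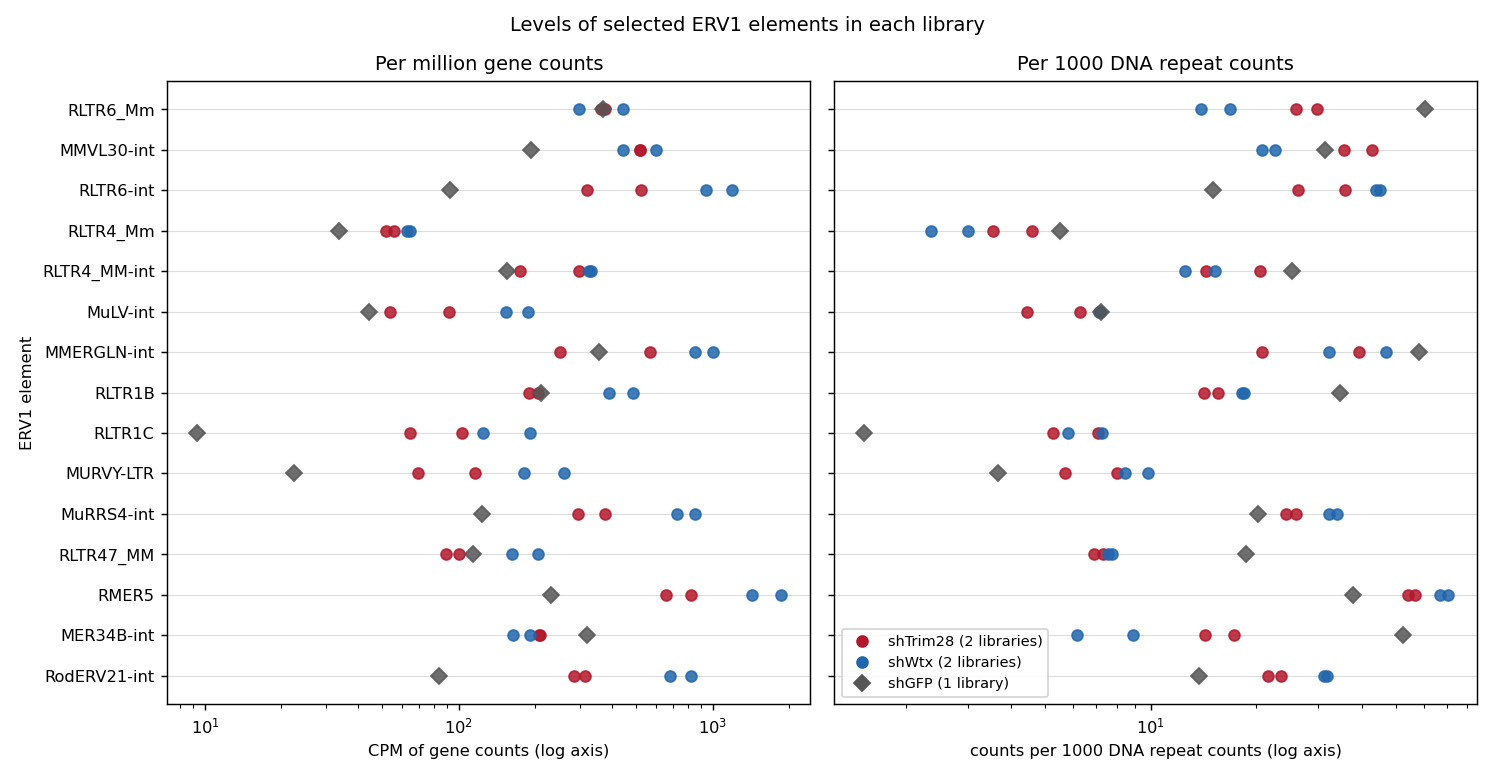
Levels of 15 ERV1 elements in each library, as CPM of gene counts (left) and per 1000 DNA repeat counts (right), both on log axes, with 1 symbol for each library. RLTR1C is lowest in shGFP on both scales at 9.27 CPM and 1.52 per 1000, while MER34B-int is highest in shGFP on both at 320 CPM and 52.3 per 1000.

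The MuRRS and MuRVY elements, murine retrovirus-related sequences of which MuRVY is repeated on the Y chromosome, had group medians near those of all repeats against shGFP. Of the 10 tested rows of this group, counting LTRIS LTRs, 2 rose in shTrim28, 10 rose in shWtx and 9 were lower in shTrim28 than in shWtx on the gene scale, beside 20.9%, 82.2% and 66.0% of all repeats. LTRIS3 and LTRIS5 are among the members with under 10 counts in shGFP, so the group's counts against shGFP are no support for a direction. The group medians were 1.13, 2.46 and -1.31 on the log2 scale. None passed by edgeR's test on the DNA repeat scale. There 0, 3 and 0 of them had an unadjusted p under 0.05, beside 165, 249 and 114 of the 900 repeats tested.

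MURVY-LTR had 116 and 69.2 CPM in shTrim28, 260 and 180 CPM in shWtx, and 22.4 CPM in shGFP, with no overlap between groups. It rose in shTrim28 (log2 fold change 2.03, SE 0.66, adjusted p = 0.0273) and in shWtx (3.35, SE 0.67, adjusted p = 1.14e-05). MURVY-int, its internal partner by name, had 82.4 and 45.1 CPM in shTrim28, 184 and 127 CPM in shWtx, and 36.5 CPM in shGFP, and rose in shWtx (2.12, adjusted p = 0.000652), while its value in shTrim28 was 0.73 (adjusted p = 0.314). The difference between the LTR and the internal part was not tested. MuRRS-int had 164 and 134 CPM in shTrim28, 450 and 271 CPM in shWtx, and 44.3 CPM in shGFP. It rose in shTrim28 by 1.71 (adjusted p = 0.0423) and in shWtx by 3.01 (adjusted p = 4.26e-05). The shTrim28 calls of MURVY-LTR and MuRRS-int, at adjusted p of 0.161 and 0.210 without shWtx 1 and 0.177 and 0.232 without shWtx 2, were lost there, and the shWtx call of MURVY-int was lost without shWtx 1 (1.82, adjusted p = 0.0528). MuRRS4-int had 376 and 295 CPM in shTrim28, 855 and 726 CPM in shWtx, and 124 CPM in shGFP, with log2 fold changes of 1.43 (adjusted p = 0.0637) in shTrim28 and 2.68 (adjusted p = 0.000121) in shWtx.

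Other rows with rodent names held the member with the most counts, RMER5, an LTR. It had 826 and 655 CPM in shTrim28, 1865 and 1434 CPM in shWtx, and 231 CPM in shGFP, and the groups did not overlap. It rose in shTrim28 (log2 fold change 1.68, SE 0.58, adjusted p = 0.0344) and in shWtx (2.84, SE 0.62, adjusted p = 4.05e-05). Relative to 1000 DNA repeat counts it had 56.8 and 54.0 in shTrim28, 70.6 and 67.0 in shWtx, and 37.7 in shGFP, the control again the lowest, and neither group passed. The shTrim28 call on the gene scale was lost without shWtx 1 (adjusted p = 0.253) and without shWtx 2 (adjusted p = 0.249). Of the 12 rows of this group 6 rose in shTrim28, 11 rose in shWtx and 11 were lower in shTrim28 than in shWtx, beside 20.9%, 82.2% and 66.0% of all repeats. RLTR5_Mm and RLTR30 are among the members with under 10 counts in shGFP, so the group's counts against shGFP are no support for a direction.

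RLTR47_MM was the row of this group that did not rise in shWtx. It had 100.2 and 88.9 CPM in shTrim28, 205 and 162 CPM in shWtx, and 114 CPM in shGFP. Per 1000 DNA repeat counts it had 6.90 and 7.32 in shTrim28, 7.77 and 7.57 in shWtx, and 18.7 in shGFP, so that the other 4 libraries lay below the control and close together. It fell in shWtx on that scale (log2 fold change -1.28, SE 0.24, adjusted p = 0.0262), with an adjusted p of 0.289 without shWtx 1, 0.200 without shWtx 2 and 0.0723 by DESeq2. The value in shTrim28 was -1.38 (SE 0.25, adjusted p = 0.0662).

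RodERV21-int, a rodent internal sequence, had 313 and 285 CPM in shTrim28, 825 and 681 CPM in shWtx, and 83.7 CPM in shGFP. It rose on the gene scale in shTrim28 (log2 fold change 1.82, SE 0.62, adjusted p = 0.0328) and in shWtx (3.16, SE 0.66, adjusted p = 2.27e-05). Set against 1000 DNA repeat counts it had 21.5 and 23.5 in shTrim28, 31.2 and 31.8 in shWtx, and 13.7 in shGFP, with no overlap between the groups. It rose in shWtx there (1.20, SE 0.26, adjusted p = 0.0388), and the call was lost with FordPrefect out of the total (0.70, adjusted p = 0.123).

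Of the 76 rows with more widely shared mammalian names (MER, LTR and the like), 36 could be tested. On the gene scale 7 of these rose in shTrim28, 34 rose in shWtx and 30 were lower in shTrim28 than in shWtx, beside the same 20.9%, 82.2% and 66.0% of all repeats. Many of these rows, such as MER34A and MER65D, had under 10 counts in shGFP. Some, such as MER65D, passed the filter on low counts only through a shWtx library. The numbers called are therefore no support for a direction. MER34B-int, an internal sequence, had the most negative log2 fold change of the members against shGFP on both scales. It had 207 and 209 CPM in shTrim28, 163 and 191 CPM in shWtx, and 320 CPM in shGFP, the control the highest library, and did not pass on the gene scale. Per 1000 DNA repeat counts it had 14.3 and 17.2 in shTrim28, 6.17 and 8.92 in shWtx, and 52.3 in shGFP. It fell in shWtx (log2 fold change -2.82, SE 0.30, adjusted p = 0.00976) and had a value of -1.72 in shTrim28 (SE 0.30, adjusted p = 0.0646). The shWtx value was -2.56 without shWtx 1 (adjusted p = 0.146) and -3.08 without shWtx 2 (adjusted p = 0.0934). MER34A1, added after its values were seen, was near the control in shTrim28, with 58.1 and 65.5 CPM, 104 and 97.0 CPM in shWtx, and 57.2 CPM in shGFP.

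Several of the largest fold changes on the gene scale belong to members with 1 to 3 rounded counts in shGFP, for which the ratio of counts is given with an exact 95% counting interval that covers counting error only. In shTrim28 against shGFP these were LTR48B with a ratio of 9.23 (interval 1.55 to 375), LTR37B with 8.28 (2.20 to 69.9), MER110A with 7.33 (1.21 to 300.0) and RLTR5_Mm with 3.98 (1.28 to 20.0). In shWtx against shGFP LTR48B had a ratio of 33.4 (5.79 to 1339), LTR37B 15.9 (4.23 to 134) and MER92B 12.6 (3.30 to 107), and the interval of MER67A ran from 2.88 to 94.2. MER110A and MER65D, each with 1 control count, had shWtx ratios of 15.9 (2.66 to 649) and 11.8 (1.92 to 487). All of these rows passed the filter on low counts through the libraries where they are high, so a ratio above 1 was built into their selection, and the intervals are a description only.

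The lowest shTrim28 levels relative to shWtx were also found among rows with few counts. MER57A-int had 7.45 and 5.90 CPM in shTrim28, against 35.3 and 22.8 CPM in shWtx. LTR48B had 16.8 and 16.1 CPM in shTrim28, against 68.9 and 40.5 CPM in shWtx. Both rows passed the filter on low counts through the shWtx libraries, so a lower level in shTrim28 was built into their selection and no test of it is given.

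LTR rows and internal rows are given side by side. In shTrim28 against shGFP on the gene scale 16 of 53 tested LTR rows and 3 of 17 internal rows rose, with median log2 fold changes of 1.31 and 1.43, where 20.9% of all repeats rose. In shWtx against shGFP 48 LTR rows and 15 internal rows rose, with medians of 2.45 and 2.21, where 82.2% of all repeats rose. The medians on the DNA repeat scale were 0.25 and 0.31 in shTrim28, and 0.47 and 0.26 in shWtx. No test of LTR rows against internal rows was made. Both sets hold members with under 10 counts in shGFP, so their counts and medians against shGFP are no support for a direction.

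Genes that act on retroviruses were read from the gene table. Of 35 listed genes of provirus silencing, 33 were tested, of which 4 fell in shTrim28 against shGFP and 0 rose (7 and 2 at an unadjusted p under 0.05), where 2.26% of all genes fell and 4.27% rose. Here and below, shares of all genes are at the adjusted threshold. None is given at the unadjusted threshold, so the unadjusted counts describe the listed genes only. Beside Trim28 the genes that fell past the adjusted threshold were Chaf1b, a subunit of the histone chaperone CAF-1, and the de novo DNA methyltransferases Dnmt3a and Dnmt3b. Dnmt3b had 22.4 and 25.4 CPM in shTrim28, 53.1 and 43.0 CPM in shWtx, and 108 CPM in shGFP, with no overlap, and fell in shTrim28 (log2 fold change -2.13, SE 0.36, adjusted p = 0.000354) and in shWtx (-1.13, SE 0.35, adjusted p = 0.030). Dnmt3a fell by 1.81 (adjusted p = 0.000162) in shTrim28 and by 0.99 (adjusted p = 0.0208) in shWtx. Chaf1b fell by 1.97 (adjusted p = 0.000253) in shTrim28, and its value in shWtx was -0.67 (adjusted p = 0.150). The list median was -0.19 in shTrim28 against shGFP, against 0.16 over all genes.

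In shWtx against shGFP 3 silencing genes fell (Trim28, Dnmt3a and Dnmt3b) and 0 rose (8 and 0 at an unadjusted p under 0.05), where 4.94% of all genes fell and 10.9% rose. Zfp809 had 37.4 and 39.2 CPM in shTrim28, 33.4 and 31.6 CPM in shWtx, and 25.7 CPM in shGFP, and Setdb1 had 39.6 and 47.5 CPM in shTrim28, 57.7 and 41.2 CPM in shWtx, and 52.1 CPM in shGFP. Neither passed in either comparison. Set against shWtx, 4 silencing genes were lower in shTrim28 (Trim28, Chaf1b, Dnmt3a and Dnmt3b) and 1, Yy1, a zinc finger factor that binds the LTR of murine leukemia virus, was higher (log2 difference 1.00, adjusted p = 0.0319), where 9.83% of all genes were lower and 5.45% higher.

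Among genes of retrovirus entry, Slc7a1, the receptor of ecotropic murine leukemia virus, had 96.3 and 96.8 CPM in shTrim28, 161 and 127 CPM in shWtx, and 59.0 CPM in shGFP. It rose in shWtx (log2 fold change 1.30, SE 0.35, adjusted p = 0.0133), and Xpr1, Slc20a1 and Slc20a2 did not pass. Without shTrim28 1, shTrim28 2 or shWtx 1, and by DESeq2, Slc7a1 did not pass either. Of 5 tested restriction genes, Apobec3, a cytidine deaminase, fell in shTrim28 (-1.40, adjusted p = 0.0190), as did Samhd1, a dNTP hydrolase (-1.07, adjusted p = 0.0119), where 2.26% of all genes fell. Bst2, which tethers budding virus particles, fell in shWtx (-1.39, adjusted p = 0.0226) and was higher in shTrim28 than in shWtx (1.34, adjusted p = 0.00962). Shares of all genes below are those of the main fit. They are not given for DESeq2 or for fits with libraries left out, so those counts describe the listed genes only. Over all 3 lists together the number that fell in shTrim28 was 6 of 42 tested, beside 2.26% of all genes, and it was 2 without shTrim28 1 and 1 without shTrim28 2. The number that fell in shWtx was 4, beside 4.94% of all genes, and it was 1 when any single one of the 4 shTrim28 and shWtx libraries was left out and 0 by DESeq2. Set against shWtx, 2 were higher in shTrim28 and 5 lower, beside 5.45% and 9.83% of all genes, and leaving out 1 of these 4 libraries gave 0 to 1 higher and 0 to 2 lower.

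Cell identity markers moved as well. The summed level of 8 stem cell genes (among them Pou5f1, Nanog and Zfp42) was 1537 and 1662 CPM in shTrim28, 2715 and 2959 CPM in shWtx, and 5909 CPM in shGFP. Of these, 8 fell in shTrim28, where 2.26% of all genes fell, and 5 in shWtx, where 4.94% fell. The summed level of 12 fibroblast genes was 2631 and 2940 CPM in shTrim28, 1331 and 1443 CPM in shWtx, and 1287 CPM in shGFP, and of the 10 tested 4 rose and 0 fell in shTrim28 (9 and 0 at an unadjusted p under 0.05), where 4.27% of all genes rose at the adjusted threshold. In shWtx 2 rose and 1, Dcn, fell (-1.33, adjusted p = 0.00826), where 10.9% of all genes rose and 4.94% fell. Lum was at 0 in shGFP and Acta2 at 1.86 CPM, while Col1a2 had 141 CPM there. Acta2 is among the genes that rose in shTrim28 and in shWtx. It passed the filter on low counts through the libraries where it is high, so a rise was built into its selection. In bulk RNA, fewer cells of a type and less RNA per cell cannot be told apart, and the part of these shifts in the ERV1 and silencing gene results was not tested.

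**Figure D4:**
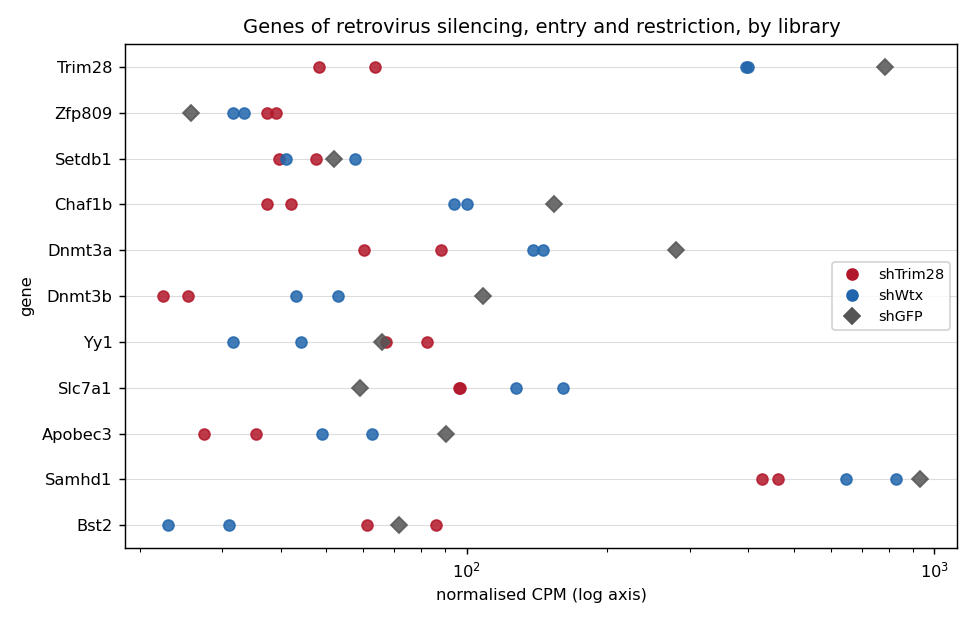
Levels of 11 genes of provirus silencing, retrovirus entry and restriction in each library, in CPM on a log axis, with 1 symbol for each library. Trim28 is at 63.5 and 48.4 CPM in shTrim28, 400 and 396 CPM in shWtx and 783 CPM in shGFP, and Dnmt3b follows the same order.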

How the data were processed

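Estimated counts were deposited by the authors in 2 tables, per gene and per repeat element. They are fractional and not normalised. Per the labels, reads came from Helicos single-molecule sequencing of total RNA and were aligned to RefSeq and Repbase. The submitters' processing notes name the mm9 build. The sources used here do not name the aligner or the counter, and do not say whether strand was used or how reads that match several elements were shared. All value columns were used.

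Counts were rounded and rows filtered with filterByExpr of edgeR 4.0.16 (R 4.3.3), which left 900 of 1221 repeat rows and 10878 of 28642 gene rows. The quasi-likelihood test was fitted to all 5 libraries in 3 groups with no covariate, leaving 2 residual degrees of freedom, and p-values were adjusted by Benjamini-Hochberg over all rows of a table. All tests were two-sided, with a threshold of 0.05 on the adjusted p. Repeat rows were scaled by the gene table's effective library sizes (TMM), called the gene scale, or by the total of the 156 DNA transposon rows, called the DNA repeat scale. The standard error (SE) is approximate, being the ratio of the log2 fold change to the root of its F statistic. CPM values use unrounded counts and the gene scale.

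Alternatives were DESeq2 1.42.0 (Wald test and size factors), other scalings, no filter, no rounding, only the groups compared, and leaving out each library. On simulated counts for shTrim28 against shGFP, 88% of 50 rows raised by 2 on the log2 scale were called on the DNA repeat scale and 38% of 50 raised by 1. For rows lowered by 2 and by 1 the rates were 74% and 34%. On the gene scale they were 74% and 22% for raised rows, and 60% and 18% for lowered rows. The simulated spread on the DNA repeat scale was smaller than the fitted one. Control levels were pooled over all libraries, so the rates can be too high for members with few shGFP counts.

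Members named are RLTR1C, the 6 with the highest mean CPM, the murine retrovirus names, and up to 8 in each direction with the largest called change in each comparison and scale, or the 3 of lowest p where fewer than 3 passed. Elements named beyond this rule were chosen after their values were seen. The members, gene lists and this rule were chosen with earlier results of these data known. Kdm1a, Fam208a, Syna and Synb matched no row used here, and Fv1 had too few counts to be tested. A further listed gene is not reported here.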

Additional observations from a re-analysis of the deposited data

How the results depend on the processing

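No paired analysis was possible because the hairpin numbers are not shared between groups and the replicate numbers follow the order of the libraries only. Scaling to the repeat table's own TMM factors put the median of all repeats (log2) at 0.04, 0.05 and -0.03 in shTrim28 against shGFP, shWtx against shGFP and shTrim28 against shWtx. With it, 0 members rose and 3 fell in shTrim28 against shGFP, 6 rose and 5 fell in shWtx against shGFP, and 0 were lower in shTrim28 than in shWtx. For this fit and the alternative fits below, the share of all repeats called is not given, except with FordPrefect out of the total. The member counts alone do not separate the members from all repeats. With DESeq2 size factors of the gene table, 7 rose in shTrim28. With only the compared groups fitted, 0 rose in shTrim28 and 1 fell in shWtx on the gene scale, and 10 rose and 6 fell in shWtx on the DNA repeat scale. DESeq2's Wald test called 20 lower in shTrim28 than in shWtx on the gene scale and 1 lower in shTrim28 than in shGFP on the DNA repeat scale.

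On the DNA repeat scale without a filter, 2 members fell in shTrim28 and 5 rose in shWtx. TMM over the DNA repeat rows, and likewise the total without FordPrefect, gave 4 lower in shTrim28, 9 lower in shWtx and 3 higher in shTrim28 than in shWtx. Leaving out 1 library gave on the gene scale 0 to 33 higher in shTrim28, 39 to 65 higher and 0 to 1 lower in shWtx, and 0 to 62 lower in shTrim28 than in shWtx. On the DNA repeat scale it gave 0 to 2 higher and 0 to 5 lower in shTrim28, 0 to 10 higher and 0 to 6 lower in shWtx, and 0 to 3 higher and 0 to 1 lower in shTrim28 than in shWtx.

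For the genes of silencing, entry and restriction, in shWtx against shGFP 0 rose and 0 fell without a filter and with DESeq2's Wald test, and 0 rose and 1 fell with only the compared groups. In shTrim28 against shWtx 1 was higher and 1 lower without a filter, and 0 higher and 2 lower with the Wald test. The share of all genes called is not given for any alternative fit of this paragraph, so the counts describe the listed genes only. Leaving out 1 library gave 1 to 6 lower in shTrim28, 0 to 1 higher and 1 lower in shWtx, and 0 to 1 higher and 0 to 2 lower in shTrim28 than in shWtx.

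Of 961 values of named elements under alternatives, 731 kept direction and call, 163 lost the call, 45 gained one and 22 changed sign. Genes are not among these values. Under the repeat table's TMM factors the values in shTrim28 against shGFP were -1.05 for MMERGLN-int, -0.04 for MER21B, -0.53 for MuLV-int and -0.42 for MURVY-int. In shWtx against shGFP they were -0.75 for MMERGLN-int, -0.71 for MMVL30-int, -0.21 for MuLV-int and -0.02 for MURVY-int. In shTrim28 against shWtx they were 0.01 for RLTR1C and 1.03 for MMVL30-int. Leaving out 1 library put MMERGLN-int between -0.50 (without shTrim28 1) and 0.68 in shTrim28 against shGFP, and MMVL30-int between -0.21 and 0.22 (without shWtx 1) in shTrim28 against shWtx, both on the gene scale.

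On the DNA repeat scale, MER21B in shWtx against shGFP was at -0.16 with TMM over the DNA rows and -0.17 without FordPrefect, and MURVY-int was at -0.35 and -0.35. RLTR1C in shTrim28 against shWtx was at 0.11 and 0.12 with those scalings, 0.07 without shTrim28 2 and 0.04 without shWtx 1, with a lowest value of -0.34 when 1 library was left out. Without shTrim28 2, MER21B was at 0.13 in shTrim28 against shGFP (from -0.15 when another library was left out) and MMERGLN-int at 0.00 in shTrim28 against shWtx, where leaving out 1 library gave -0.91 to 0.00. The cause of these changes was not tested. The single control library, with 2233 ERV1 counts, limits every comparison with shGFP.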
